A study of Homo sapiens and Mus musculus and synthetic construct with 31 samples.

Results

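The 38 genes described here are HOX genes of the 4 mammalian clusters, 10 in HOXA, 10 in HOXB, 9 in HOXC and 9 in HOXD, out of 63677 genes in the human and 37991 genes in the mouse count tables. They were chosen by name, each human gene together with the mouse gene of the same symbol. No expression value entered the rule, although earlier results of these data were known. HOX genes encode homeodomain transcription factors that give cells their position along the head to tail axis of the embryo. Within a cluster the genes lie in the order of their paralog numbers, those with low numbers being used first and towards the head and those with high numbers later and towards the tail. In pluripotent cells the clusters are known to be covered by Polycomb marks and to be largely silent, and retinoic acid, CDX factors, WNT and FGF signals are known to open them as cells differentiate.

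RNA was sequenced from human embryonic stem cells (hESCs, the line HUES64, grown without feeders in mTeSR1) and from mouse embryonic stem cells (mESCs, derived from blastocysts and grown without feeders in 2i medium), with and without transfection of a reporter plasmid library. hESCs were transfected with LipofectStem and mESCs with Lipofectamine 2000. No knockout or transgene distinguished the groups. The 2i medium is defined by its inhibitors of MEK and GSK3, to which both mESC groups were thus exposed and the hESCs were not, and the untransfected cells of each species shared the line and medium of the transfected ones. There were 9 libraries of transfected hESCs (3 passages with 3 transfections each, summed per passage in the tests), 3 of untransfected hESCs, 3 of transfected mESCs and 3 of untransfected mESCs, with 15107041 to 22018956 fragments counted over genes. Replicates are passages of 1 line per species, so species, line, medium with its inhibitors, and reagent cannot be told apart. The p-values measure the spread between passages of these lines, except in the RNA fits between the species. Those fits count the transfected and untransfected libraries of a passage as independent, so their p-values do not measure that spread. The transfection fits within a species also take no account of which libraries share a passage, unless the passage is named as a block. In bulk RNA, fewer cells of a type and less RNA per cell cannot be told apart either. The reporter assay used the same transfected cell types, with 9 RNA libraries from hESCs, 3 from mESCs and 1 of plasmid DNA.

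In hESCs the HOX genes gave almost no RNA. Of the 38 genes, 27 had 0 fragments in all 12 libraries, 10 had 1 to 3 fragments in all, and 1 had more, for 31 fragments over the 38 genes together. At this depth a count of 0 allows a level of up to 0.0137 cpm (the CPM unit scales the fragments of a gene to a common library total), which covers counting error only. HOXB1, the gene at the 3′ end of the HOXB cluster and an early marker of the hindbrain in embryos, was the gene with more, with 15 fragments in 8 of 12 libraries. It had 3, 3 and 2 fragments in the untransfected libraries, and 0 to 2 in each of the 9 transfected ones. A hESC library held 0 to 6 fragments of all 38 genes.

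In mESCs 34 of the 38 genes were detected, 18 of them in each of the 6 libraries, and the genes gave 4520 fragments in all. Hoxb1, Hoxb3, Hoxb5 and Hoxb6 had 0 fragments in all 6 libraries, which allows up to 0.0279 cpm each, and 7 genes had 1 to 3 fragments. Summed over the 38 genes, the mean level was 42.1 cpm in untransfected and 42.5 cpm in transfected mESCs, against 0.195 and 0.119 cpm in untransfected and transfected hESCs. Among the mESC libraries, that of untransfected passage 2 had the lowest sum, 35.4 cpm, and those of passage 1 the highest, 48.1 cpm untransfected and 48.3 cpm transfected. The libraries of a passage thus lay close together, whereas those of different passages did not.

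**Figure D1:**
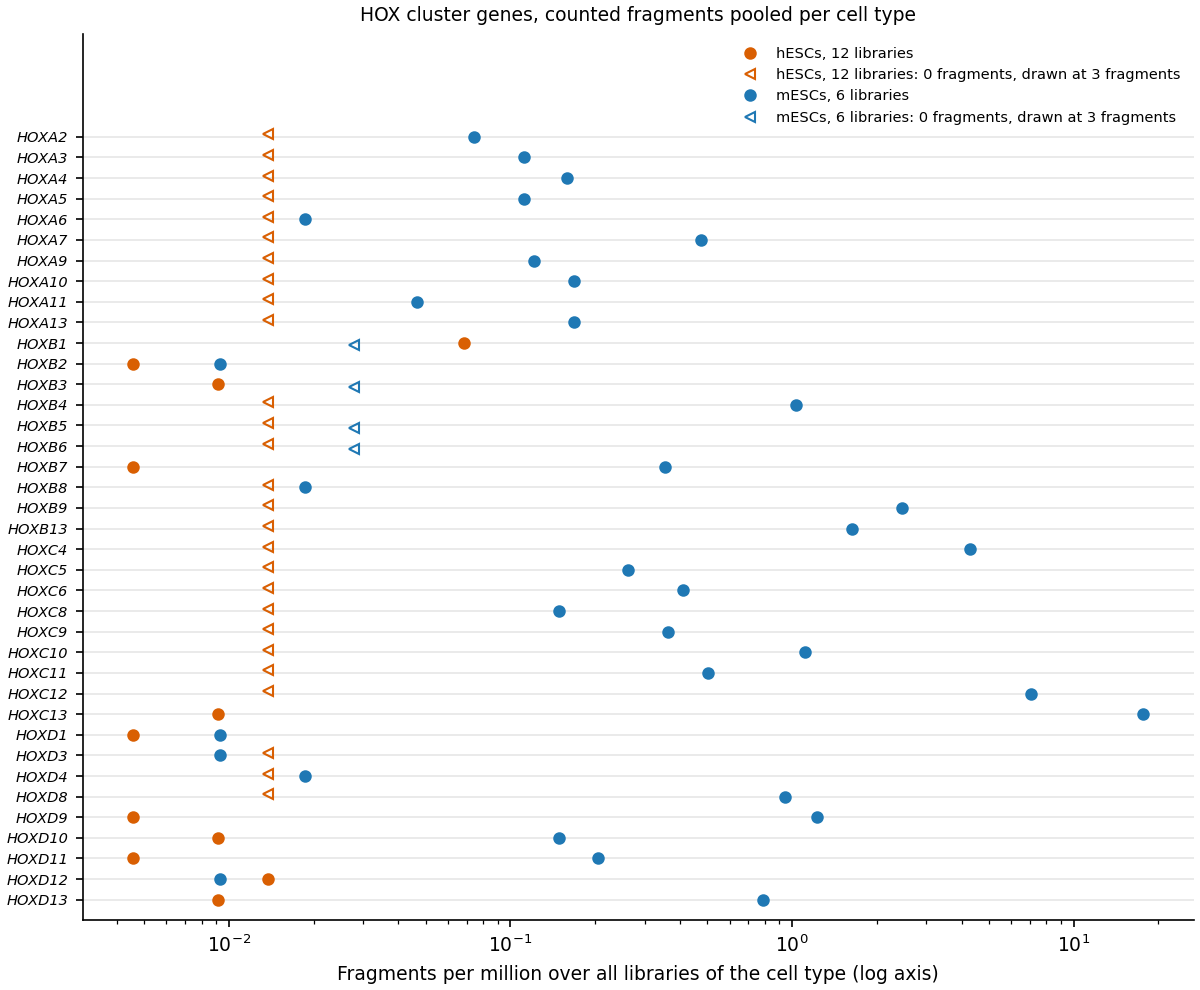
The level in cpm (log axis) of each of the 38 genes over all libraries of hESCs (orange, 12 libraries) and of mESCs (blue, 6 libraries), with genes at 0 drawn as open triangles at 3 fragments. Most hESC symbols are triangles at 0.0137 cpm, and the highest mESC points are Hoxc13 at 17.7 cpm and Hoxc12 at 7.03 cpm.

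The level in mESCs was concentrated at the 5′ end of HOXC, the cluster that lies at chr15:102751534-102867274 (mm9). Hoxc13, whose product is known for its part in hair and nail formation, had 21, 15.5 and 18.7 cpm in untransfected passages 1, 2 and 3, and 19.4, 15.8 and 16.3 cpm in transfected ones. Hoxc12, its neighbour, had 9.0, 5.51 and 5.88 cpm untransfected and 8.99, 6.56 and 6.76 cpm transfected. Both genes were highest in passage 1, and their transfected and untransfected libraries overlapped. Hoxc4, at the other end of the cluster and best known from spinal cord and blood cells, had 6.09, 3.53 and 4.41 cpm untransfected and 5.92, 2.94 and 3.25 cpm transfected. It was also highest in passage 1, in both groups. Hoxc10, a gene of lumbar spinal cord and hindlimb, had 1.19, 1.18 and 0.945 cpm untransfected and 1.68, 0.735 and 0.966 cpm transfected. The 9 HOXC genes together held 73.1% to 81.8% of the HOX fragments of an untransfected library and 69.2% to 78.8% of those of a transfected one.

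Of the other clusters, HOXB and HOXD each had a few genes near 1 cpm and HOXA had none. Hoxb9, a thoracic gene, had 2.45, 1.71 and 2.52 cpm in untransfected passages 1, 2 and 3 and 3.36, 2.32 and 2.44 cpm in transfected ones. Hoxb13, known from the prostate and the tail bud, had 1.72, 1.61 and 1.36 cpm untransfected and 1.57, 1.53 and 1.98 cpm transfected. Hoxb4, known from blood stem cells, had 0.993, 0.535 and 0.997 cpm untransfected and 0.870, 1.30 and 1.47 cpm transfected. In each of these HOXB genes the groups overlapped. Hoxd9 had 0.397, 0.749 and 1.42 cpm untransfected and 1.33, 1.41 and 1.88 cpm transfected. Hoxd8 had 0.861, 0.642 and 0.997 cpm untransfected and 0.812, 0.792 and 1.47 cpm transfected. In these HOXD genes the highest untransfected library likewise lay above the lowest transfected one. Among HOXA genes the most abundant was Hoxa7, with 51 fragments over the 6 libraries, and Hoxa6 had 2.

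**Figure D2:**
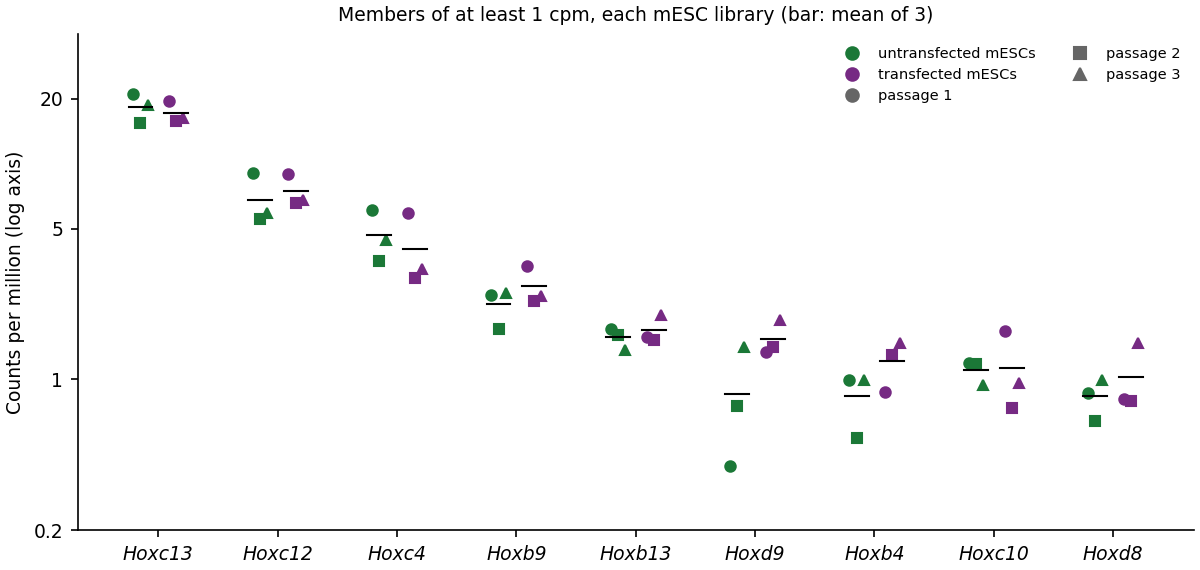
The level in cpm (log axis) in each mESC library of the 9 genes with a mean of at least 1 cpm in a group, by treatment (colour) and passage (marker), with the group mean as a black line. Transfected and untransfected points overlap for each gene, and Hoxc13 lies above the other genes in each library.

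Levels of different genes can be compared only per length, so they were divided by the exon bases of each gene and are given as cpm per kilobase of exon (RPKM). In untransfected mESCs the order began with Hoxc13 at 7.47 ± 1.13 RPKM and Hoxc12 at 6.59 ± 1.86 RPKM (mean ± SD, n = 3 passages), neighbours that did not differ beyond their spread. Hoxc4 followed at 1.83 ± 0.508 RPKM, below each library of the first pair. Hoxb9 was at 0.865 ± 0.174, Hoxb13 at 0.709 ± 0.0824 and Hoxc10 at 0.579 ± 0.0726 RPKM, with the spreads of Hoxb9 and Hoxb13, and likewise of Hoxb13 and Hoxc10, overlapping. Hoxd9 at 0.391 ± 0.237, Hoxd13 at 0.351 ± 0.0991, Hoxd8 at 0.304 ± 0.0653, Hoxc11 at 0.218 ± 0.0533 and Hoxb4 at 0.203 ± 0.0640 RPKM came next and overlapped. Hoxc12 and Hoxc13 together held 67.5% ± 2.81 (SD, n = 3) of the summed RPKM of the 38 genes. As shares of protein-coding genes, 71.1% of 22336 had a lower mean RPKM than Hoxc13 in untransfected mESCs, and 41.9% had a lower one than Hoxb4, so that even the leading HOX genes were genes of moderate level.

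By paralog number, the 16 genes numbered 9 to 13 gave 33.4 of the 42.1 cpm in untransfected mESCs, the 11 genes numbered 5 to 8 gave 2.71 cpm, and the 11 numbered 1 to 4 gave 5.96 cpm. The share of the high numbers was thus mostly that of Hoxc12 and Hoxc13, and the median RPKM of the 3 blocks was 0.177, 0.0810 and 0.00939. Position alone did not order the genes. Hoxa13, with 0.0623 RPKM, was far below Hoxb13 and Hoxc13, Hoxd12 was not counted in untransfected mESCs although it lies beside Hoxd13, and within HOXC the level was low at Hoxc11 beside Hoxc12 and higher again at Hoxc4. The transfected mESCs had the same leading genes, with Hoxc12 at 7.21 ± 1.31 and Hoxc13 at 6.98 ± 0.798 RPKM.

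**Figure D3:**
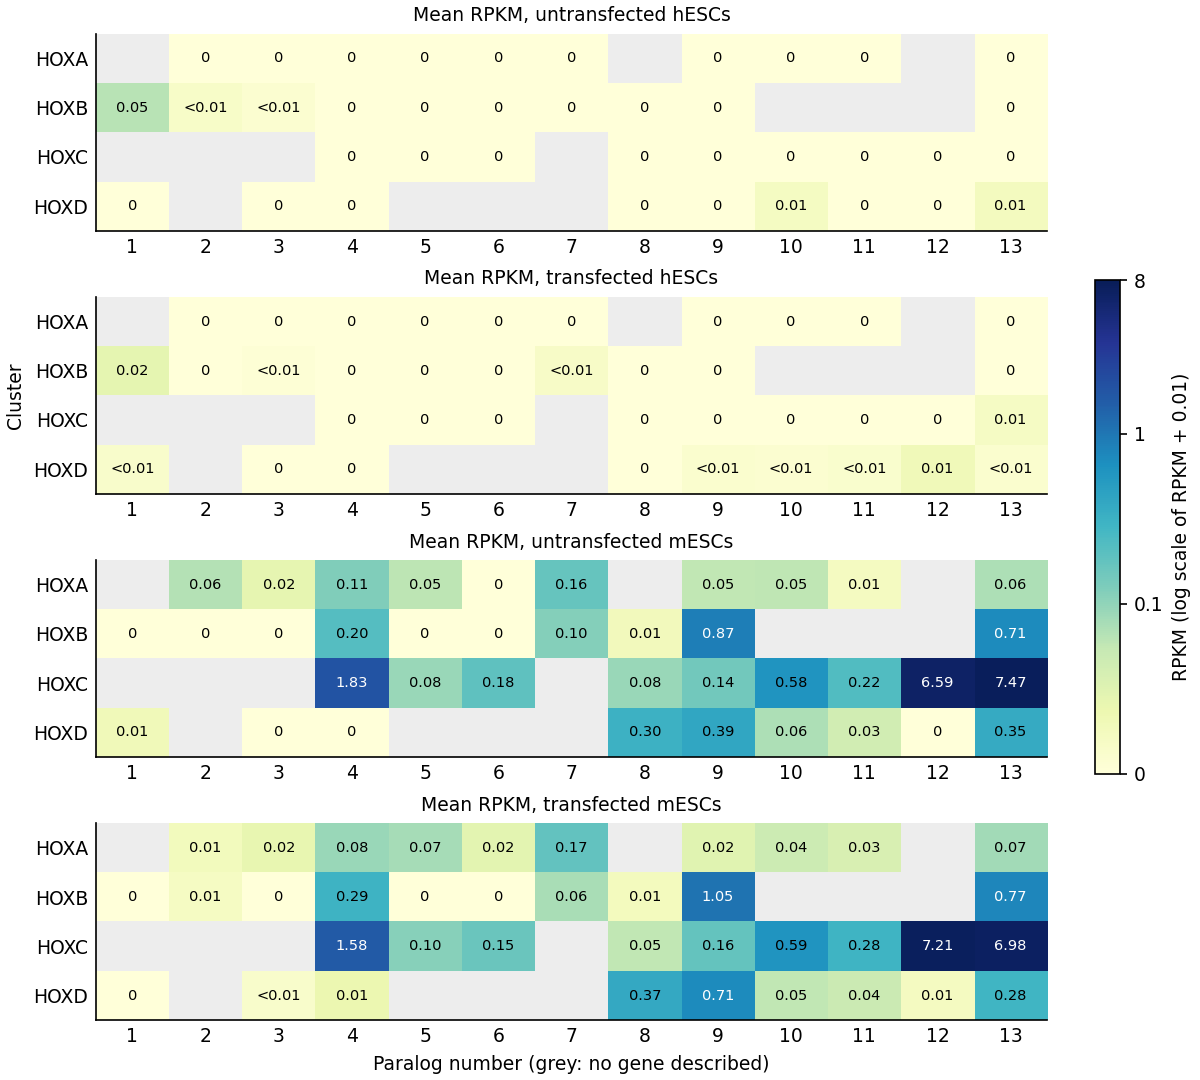
Mean RPKM of each gene by cluster (rows) and paralog number (columns) in the 4 groups, coloured on a log scale of RPKM + 0.01, with grey where no gene is described. The darkest cells are Hoxc12 and Hoxc13 in both mESC groups, and the hESC maps hold no value above that of HOXB1, 0.05 in untransfected cells.

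Between the species, the pooled counts of the HOX genes were set against the limit of a count of 0. Because fragments where annotated genes overlap are not assigned, and the overlap differs between the species, the cpm was divided by the exon bases that no other gene covers, a scaling chosen after seeing the data. Per such base HOXC12 was at least 453-fold higher in mESCs, HOXB9 at least 188-fold, HOXB13 at least 149-fold, HOXC10 at least 97.4-fold, HOXC4 at least 70.2-fold, HOXD8 at least 65.6-fold and HOXB4 at least 58.1-fold, each against 3 fragments over the 12 hESC libraries. HOXC13, with 2 fragments in hESCs and 1897 in mESCs, had a ratio of 1777 (95% exact binomial interval 491 to 14680, counting error only). HOXD9, with 1 and 132 fragments, had a ratio of 287 (50.6 to 11424), and HOXD13, with 2 and 85 fragments, one of 78 (20.9 to 655). HOXB1 went the other way and was at least 2.31-fold higher in hESCs. Without the scaling the bound was 512-fold for HOXC12 and 312-fold for HOXC4, the gene it moved most among these. For HOXD12 the ratio was 0.475 (0.00904 to 5.91), so that no difference was detectable at this depth, and HOXB2 and HOXD1 had 1 fragment in each species. HOXB5 and HOXB6 were at 0 in both.

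In edgeR's quasi-likelihood fit over 11520 ortholog pairs with transfection as a covariate, 3046 pairs were higher in mESCs by at least 2-fold at an adjusted p under 0.01, that is 26.4% of those tested, and 3390 were lower, that is 29.4%. Only 8 HOX genes passed the filter of 1 cpm in 3 libraries (HOXC13, HOXC12, HOXC4, HOXC10, HOXB9, HOXB13, HOXB4 and HOXD9), and all 8 were called higher in mESCs. They passed through their mESC libraries alone and so had to differ, and the count is a description. The fit also counted the transfected and untransfected libraries of a passage as independent. The fitted log2 fold changes of the 8 genes ran from 7.28 (HOXD9, SE 0.53, adjusted p 1.05e-08) to 10.67 (HOXC12, SE 0.42, adjusted p 1.34e-08). For genes without hESC counts the size depends on the fit's prior count. The SE was derived from that size and the test statistic, and so does not measure its precision there. With no filter, 36 of the 38 were tested, 26 were called higher in mESCs, HOXB1 was called lower and 9 were not called, where of all 14094 pairs tested so 25.8% were higher and 27.7% lower. The fit does not carry the scaling for overlap, and other annotated genes cover 72.7% and 78.9% of the exon bases of human HOXC12 and HOXC4.

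Transfection was then compared within each species. Of 14436 genes tested in mESCs, 158 changed at an adjusted p under 0.05, that is 1.09%, in the fit without a block. That fit leaves out which libraries share a passage, and with the passage as a block 3316 of 14436 were called. The count without a block was 43 without transfected replicate 1, 166 without transfected replicate 3 and 74 without untransfected replicate 1. It was 0 without transfected replicate 2 or without untransfected replicate 2 or 3. Of the 10 HOX genes tested (those 8 with Hoxd8 and Hoxd13) none was called, by edgeR's quasi-likelihood test with or without the block or by DESeq2. At an unadjusted p under 0.05 the edgeR fit without a block called none of the 10 either. Hoxc13 had a log2 fold change of -0.09 (SE 0.14) and Hoxc12 one of 0.14 (SE 0.22). The widest difference was that of Hoxd9, 0.82 (SE 0.41, adjusted p 0.306), higher in transfected cells in each of the 3 passages. With the passage as a block its adjusted p was 0.0695 by the same test, and its unadjusted p lay under 0.05. In that fit 5336 of 14436 genes had an unadjusted p under 0.05. Without the block Hoxb4 followed with 0.54 (SE 0.34). Hoxc4 and Hoxd13, likewise not called, were lower in transfected cells in each of the 3 passages, and the remaining 7 moved in both directions. These intervals leave room for changes of that size in the genes near 1 cpm. In hESCs no HOX gene passed the filter. Of the 11 genes tested without a filter edgeR called none, at an unadjusted p under 0.05 or adjusted (smallest adjusted p 0.384). In that fit 7.63% of 35039 genes were called, and 0.93% of 18060 with the filter. Of the 11, 10 had 1 to 3 fragments over the 12 libraries, so the test could not decide for them. HOXB1 had 0.161, 0.146 and 0.0908 cpm in the untransfected passages. Its transfected passages, at 0.0384, 0.0204 and 0.0710 cpm, all lay lower, on 8 untransfected and 7 transfected fragments.

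**Figure D4:**
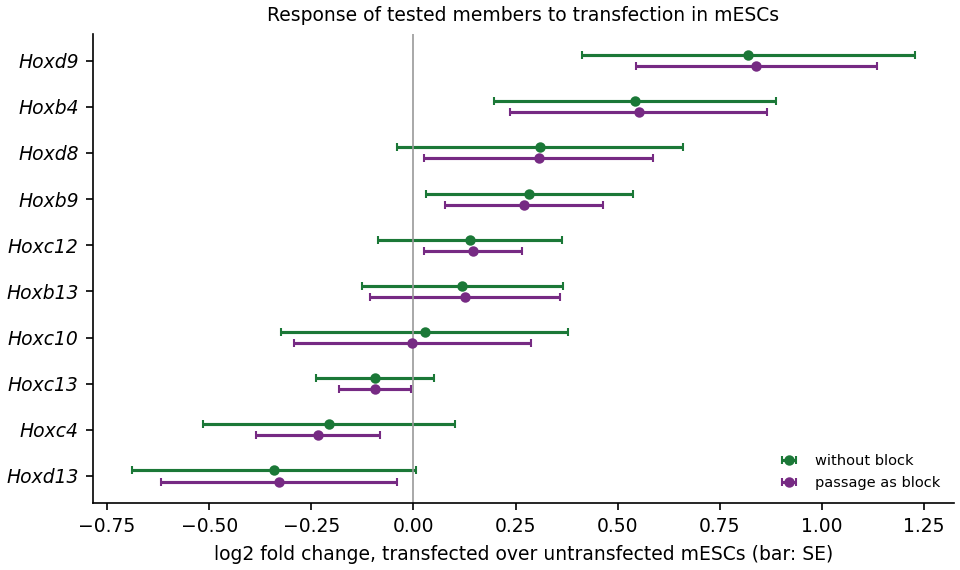
The log2 fold change (transfected over untransfected mESCs) with its standard error for the 10 tested HOX genes, without a block (green) and with the passage as a block (purple). Hoxd9 lies farthest to the right at 0.82, and the points of Hoxc13 and Hoxc12 lie near 0.

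Whether the response to transfection differed between the species was tested as an interaction over the same 11520 pairs, of which 68 were called (0.59%). Of the 8 HOX genes in that fit none was called by edgeR, at an unadjusted p under 0.05 or adjusted, and none by DESeq2. The fit gave HOXC13 a term of log2 -1.95 (SE 1.30, adjusted p 0.628) and HOXD9 one of -0.38 (SE 0.67, adjusted p 0.837). Their 2 and 1 hESC fragments all came from transfected cells, with 0 in untransfected ones, and the other genes had no hESC fragments. The size of each term thus depends on the fit's prior count, and the test could not decide the question for these genes.

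Inside the clusters, the transcript with the highest count was no HOX gene. Gm53 (chr11:96112419-96126182, mm9, + strand), a gene between Hoxb13 and Hoxb9, had 826, 664 and 777 fragments in untransfected and 830, 594 and 880 in transfected mESCs, which is 43.7 ± 9.89 and 42.2 ± 7.61 cpm (SD, n = 3). Its 4571 fragments exceeded the 4520 of the 38 HOX genes together. Per length it was at 11 ± 2.48 RPKM in untransfected mESCs, higher than Hoxc13 in each of the 3 libraries. The human gene at the matching place, LINC03057, had 1 fragment in the 12 hESC libraries. Of the 41 other annotated genes within the human clusters 7 had fragments, at most 11 each, reached by LINC02086 in HOXB and HAGLR in HOXD, and of the 32 within the mouse clusters 13 had fragments. After Gm53 the highest were Gm11538, with 113, and Gm11539, with 63, both between Hoxb13 and Hoxb9. The level at the 5′ side of mouse HOXB was thus not confined to the protein-coding genes. Of the 16 long noncoding RNAs of the human clusters that were found by name, 14 were at 0 in both hESC groups.

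Genes that act with or upon HOX genes differed between the species in both directions, as did ortholog pairs at large, with 26.4% of 11520 higher in mESCs and 29.4% lower. HOX proteins bind DNA together with the TALE homeodomain factors of the PBX, MEIS and PKNOX families, and of 8 such genes, PBX2 left aside, 4 were higher in mESCs and 3 lower, with a median log2 fold change of 1.30 against -0.03 over all pairs. MEIS2 was at 8.21 ± 2.79 cpm in untransfected mESCs and 0.0992 ± 0.128 cpm in untransfected hESCs (log2 fold change 6.55, SE 0.40). MEIS1 was higher in mESCs (4.27, SE 0.39) and MEIS3 lower (-4.18, SE 0.26). The human PBX2 gene lies in the major histocompatibility region and has further copies on haplotype contigs in the annotation, so its human count was not read as a level (with it 5 of 9 were called higher and the median was 2.97). Of the CDX and ParaHox genes, which regulate or descend beside the HOX genes, 2 of 6 could be tested. CDX1 was at 4.16 ± 1.80 cpm in untransfected mESCs and 0.0163 ± 0.0282 cpm in hESCs (log2 fold change 7.31, SE 0.45), and CDX4 at 0.0178 ± 0.0309 and 1.67 ± 0.0519 cpm (-6.04, SE 0.41). CDX2 was under 1 cpm in both.

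Retinoic acid is the best known inducer of the clusters in culture. Of 13 tested genes of its pathway, RXRB left aside, 9 were lower in mESCs, 3 higher and 1 was not called. Over all 11520 pairs 29.4% were lower and 26.4% higher, shares that also stand beside the regulators below. ALDH1A2, which makes retinoic acid, was at 9.66 ± 1.35 cpm in untransfected mESCs and 0.0655 ± 0.0281 cpm in hESCs (log2 fold change 5.94, SE 0.29), while ALDH1A1, an enzyme of the same family, was at 0 and 1.81 ± 0.609 cpm (-8.32, SE 0.68). STRA6, the receptor that brings retinol into cells, was lower in mESCs (-8.05, SE 0.35), and so was CYP26A1, which breaks retinoic acid down (-4.47, SE 0.39). RXRB has haplotype copies like PBX2, and with it 4 of 14 were called higher. Of 8 tested regulators of hindbrain and tail identity 7 were lower in mESCs, among them EGR2 (-5.43, SE 0.44) and GDF11 (-3.80, SE 0.13), and 1 was not called.

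Genes flanking the clusters were not silent in hESCs. Of the 10 tested, 5 were higher in mESCs, none lower and 5 not called, where of all pairs 26.4% were higher and 29.4% lower. The summed level of the list was 830 to 843 cpm in untransfected hESCs and 1200 to 1393 cpm in untransfected mESCs. SKAP2, beside HOXA, was at 78 ± 1.09 cpm in untransfected mESCs and 4.15 ± 1.21 cpm in hESCs (log2 fold change 4.44, SE 0.26), CALCOCO2, beside HOXB, at 134 ± 41.4 and 20.4 ± 1.51 cpm (2.78, SE 0.19), and CALCOCO1, beside HOXC, at 41.8 ± 5.03 and 14 ± 1.04 cpm (1.76, SE 0.12). Of EVX1 and EVX2, homeobox genes at the 5′ ends of HOXA and HOXD, neither had a fragment in untransfected hESCs, and EVX1 had 5 in untransfected mESCs. In none of these lists did a gene pass the test for transfection in mESCs or for the interaction.

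The labelled cell type was checked against marker genes. The summed level of 10 pluripotency genes was 3317 to 4036 cpm over the mESC and 5746 to 7205 cpm over the hESC passages, and each of them was above 0 in all groups. Between the species 4 of the 10 were higher in mESCs, 3 lower and 3 not called, and 1 was called for the interaction. Markers of other cells moved with the species as well, where of all 11520 pairs 26.4% were higher in mESCs and 29.4% lower. Of 13 tested fibroblast or feeder markers 2 were higher in mESCs and 10 lower, and DCN, LUM, TWIST2, PRRX1, LOX and S100A4 were at 0 in untransfected mESCs, whereas the list's sum, 3267 to 3658 cpm, was mostly that of FN1 at 3348 ± 220 cpm. In hESCs that sum was 1045 to 1069 cpm untransfected and 1289 to 1703 cpm transfected. Of 7 tested trophoblast markers 6 were higher in mESCs (sums of 276 to 344 cpm over the mESC passages and 107 to 178 cpm over the hESC passages). Neural markers summed to 116 to 175 cpm in mESCs and 383 to 653 cpm in hESCs, with 3 of 5 tested higher and 2 lower in mESCs. Mesoderm markers, with sums of 10.7 to 22 cpm in mESCs and 4.98 to 9.77 cpm in hESCs, had 1 of 4 higher and 3 lower, and endoderm markers, at 9.40 to 13.2 and 6.48 to 12.9 cpm, had 1 of 4 higher and 2 lower. The part of such cells in the HOX levels was not tested.

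The reporter library held 38 sequences of 144 bases from 10 human and 9 mouse sites within the clusters, 1 at the site and 1 just upstream for each, and none from HOXC. The human sites are transcription start sites (TSSs). Of the mouse sites 4, the partners of PRAC1, PRAC2, HAGLR and HOXD1, are regions that match a human TSS but had no CAGE activity (the mapping of capped RNA ends) in the study's table, and are called partner regions here. In this assay each sequence drives a reporter with its own barcodes, and activity is the RNA count over the DNA count, with the median random sequence set to 1. Of the sequences, 36 were measured, with 7 to 13 barcodes and 436 to 18580 DNA reads each, and 17 of them exceeded the 95th percentile of 1604 random sequences in hESCs (2.05) and 10 in mESCs (1.88). Of all 11861 genomic sequences measured, 33.6% did so in hESCs and 28.4% in mESCs. The most active lay inside HOXA3, on the strand opposite to the gene. Its human TSS sequence (chr7:27150317-27150460, hg19, + strand) had activities of 7.23, 6.87 and 8.60 in the hESC passages and 5.66, 7.60 and 6.83 in the mESC passages. It was measured on 7 barcodes and 824 DNA reads. The mouse partner (chr6:52122709-52122852, mm9, + strand), 92.5% identical, had 6.63, 6.80 and 7.40 in hESCs and 6.54, 5.46 and 6.83 in mESCs, on 12 barcodes and 4158 DNA reads. These values overlapped between the cell types for both sequences.

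The TSS sequence of PRAC1, a gene beside HOXB13 known from the prostate, was active in the human version, with means of 4.61 ± 0.749 in the hESC passages and 3.44 ± 0.516 in the mESC passages (SD, n = 3), and near the random sequences in the mouse partner region, with 0.811 ± 0.109 and 0.879 ± 0.288. For HOXD1 it was the reverse. The sequence at the mouse partner region had 2.91 ± 0.354 and 2.68 ± 0.136, and the human one 0.557 ± 0.137 and 0.744 ± 0.300, on 7 barcodes. Both genes of that pair were almost uncounted in the RNA (1 fragment each). The human sequence was thus low like its gene, while the mouse sequence, read from a plasmid, was not. The HOXB8 TSS sequence was low in both cell types in the human version, with 1.16 ± 0.378 and 0.954 ± 0.294.

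Between the cell types, 1866 of 13469 tested sequences were lower in mESCs (13.9%) and 1090 higher (8.09%) by edgeR's quasi-likelihood test at an adjusted p under 0.05. Of the 36 HOX cluster sequences 9 were lower in mESCs, none was higher and 27 were not called, and at an unadjusted p under 0.05 there were 2 higher ones, the upstream sequences A and B of mouse Gm53. With activity scaled to the median random sequence, 13 of the 36 were lower and none higher, where 17.6% of all sequences were lower and 4.57% higher. Among the 9, 5 came from human LINC03057, which are neighbouring and partly overlapping starts and so not independent. Its TSS sequence C had 2.53, 2.88 and 2.74 in the hESC passages and 1.28, 1.52 and 1.47 in the mESC passages (log2 fold change -0.82, SE 0.12, adjusted p 8.81e-06), and the cell types did not overlap. Its mouse partner at Gm53 had 2.21 ± 0.306 and 1.95 ± 0.343 and was not called. Whether the human and mouse sequences responded differently to the cell type was not tested. Of the sequences at the sites of HOXB8, HOXD1 and their partners only that at the TSS of mouse Hoxb8 (chr11:96143580-96143723, mm9, + strand) was called, with 1.73, 2.45 and 2.34 in hESCs and 0.646, 0.831 and 0.788 in mESCs (log2 fold change -1.41, adjusted p 0.00136). It thus lay above the random sequences' 95th percentile on average in hESCs and below their median in mESCs, on 8 barcodes and 1652 DNA reads. The gene Hoxb8 itself had 2 fragments in the mESC libraries, where 40.4% of its exon bases are shared with Hoxb7 and fragments there are not assigned. The human PRAC1 upstream sequence had 3.41, 3.35 and 2.98 in hESCs and 1.64, 1.97 and 2.37 in mESCs (log2 fold change -0.60, adjusted p 0.00269), and its mouse partner had 1.08 ± 0.0667 and 1.06 ± 0.0855. The upstream sequences of human PRAC2 and mouse Gm53 C were called with log2 fold changes of -0.49 and -0.48.

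The human LINC03057 C TSS sequence (chr17:46724640-46724783, hg19, - strand) and the PRAC1 upstream pair (chr17:46799963-46800106, hg19, - strand, and chr11:96062025-96062168, mm9, + strand) are shown because the first had the smallest adjusted p between the cell types and the pair differed between the species of origin. Each lies outside annotated exons, was read from the genome of the build named, is printed 5′ to 3′ along the strand named, and has capitals where it differs from its partner in a global alignment. The identity is 74.5% for LINC03057 C and Gm53 C, with 2 gaps in 145 aligned columns. It is 49.7% for the PRAC1 pair, with 26 gaps in 157 columns. The identity that unrelated sequences reach in such an alignment was not measured, so the columns of the PRAC1 pair need not match base for base.

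human LINC03057 C, TSS: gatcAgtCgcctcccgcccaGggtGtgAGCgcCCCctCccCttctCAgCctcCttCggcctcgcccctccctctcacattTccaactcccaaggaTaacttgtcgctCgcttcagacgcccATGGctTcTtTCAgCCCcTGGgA
human PRAC1, upstream: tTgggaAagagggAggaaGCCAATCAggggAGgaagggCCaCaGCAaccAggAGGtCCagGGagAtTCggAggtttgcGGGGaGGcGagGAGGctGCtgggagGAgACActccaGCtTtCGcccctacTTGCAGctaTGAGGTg
mouse PRAC1 partner, upstream: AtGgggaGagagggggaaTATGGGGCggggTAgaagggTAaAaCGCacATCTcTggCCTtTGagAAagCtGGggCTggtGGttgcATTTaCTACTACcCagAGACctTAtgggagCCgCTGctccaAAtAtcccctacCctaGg

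**Figure D5:**
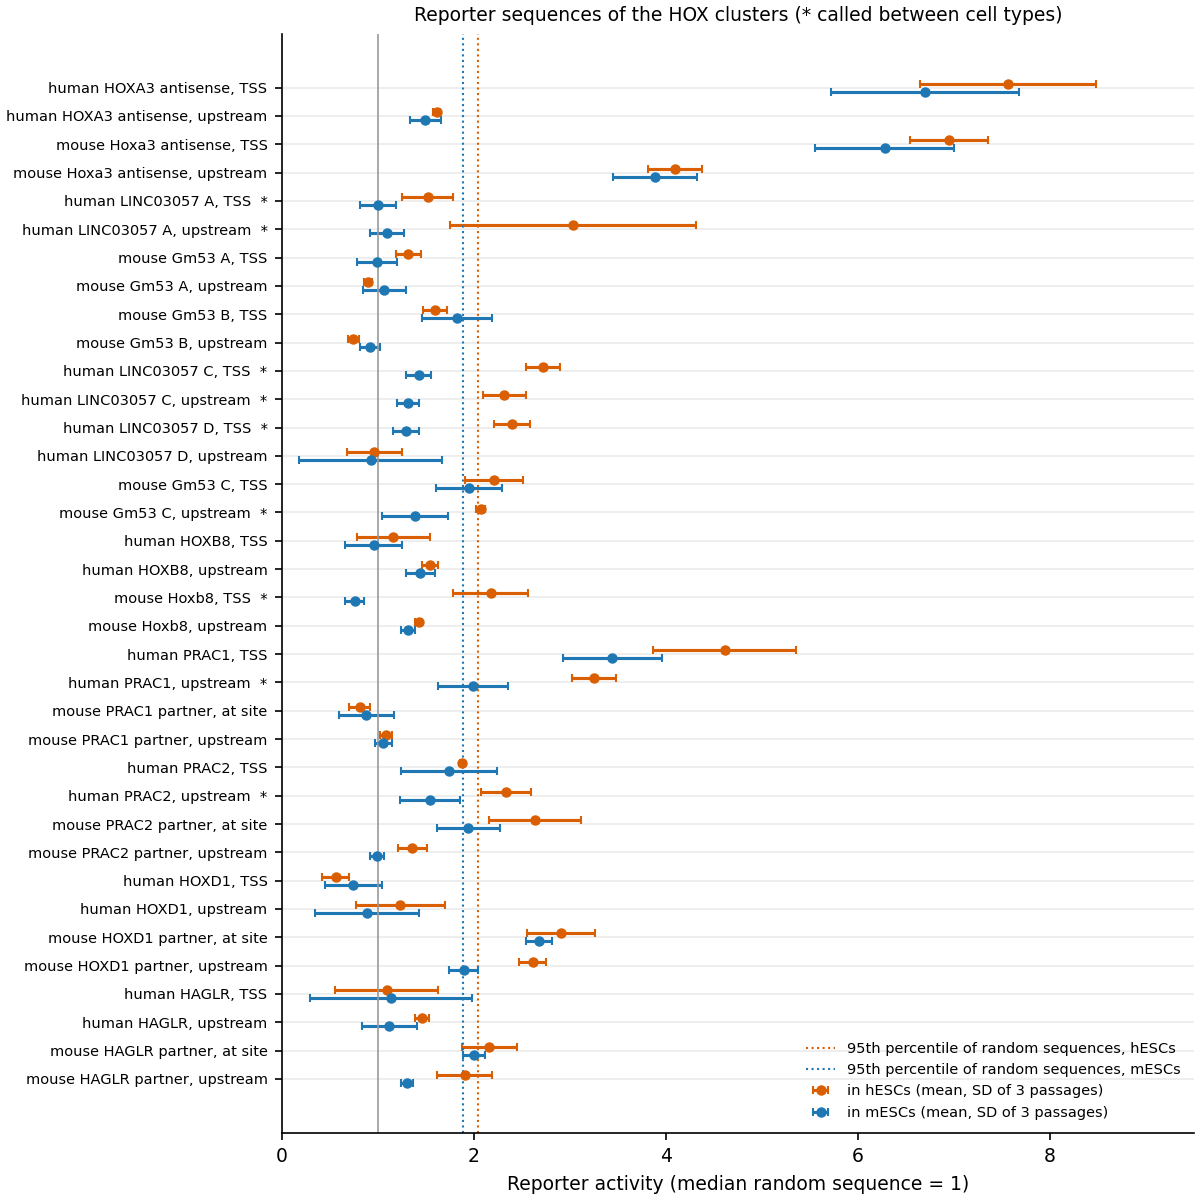
Reporter activity (linear axis, median random sequence at 1) of the 36 measured sequences of the HOX clusters in hESCs (orange) and mESCs (blue), as mean and SD of 3 passages, with dotted lines at the 95th percentile of the random sequences and an asterisk for sequences called between the cell types. The HOXA3 antisense TSS sequences lie farthest to the right, between 6.28 and 7.56, and the 9 sequences with an asterisk are lower in mESCs.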

How the data were processed

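RNA-seq and a massively parallel reporter assay were made from hESCs and mESCs, grouped by the labels' cell type and transfection. The RNA-seq files deposited by the authors hold, for each gene, the count of fragments over its exons, made with HISAT2 and featureCounts 2.0.0 with no strand option and no normalization. Fragments in exons shared by genes are then not assigned, and 27 human and 17 mouse members share exon bases. For the reporter assay, the authors deposited raw counts of reads per barcode, with no molecular identifiers. Mouse coordinates in the file headers are those of mm9, although the study names mm10. The headers of the human files give hg19.

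The 38 genes and the gene lists were chosen with earlier results of these data known. Some genes and sequences of the clusters and lists are not reported here. Of the human IDs 87.4% had a symbol, of the mouse IDs 97.9%, and 14557 ortholog pairs were formed, 661 of them from the study's list of transcription factors. The mouse gene Hoxa3 has 2 IDs, which were summed. Levels are cpm and RPKM over exon bases. Transfections of a passage were summed for tests. edgeR 4.0.16 (quasi-likelihood, TMM) was used with Benjamini-Hochberg adjustment, limma 3.58.1 and DESeq2 1.42.0 as alternatives. Species calls needed an adjusted p under 0.01 and a 2-fold change over pairs with 1 cpm in 3 libraries. Genes named with a value in each library had a mean of at least 1 cpm in a group, and list genes were named, at most 4 a list, where called, by the size of their change, others after their values were seen. For reporter sequences, barcodes with under 10 DNA reads and sequences with under 50% of their barcodes were left out, and the DNA count was an offset. Reporter libraries held 84919712 to 283746017 RNA reads per passage. Human TSSs and mouse sites were paired after the study's table, and the HOXA3 antisense pair by alignment. Sequences were read from hg19 and mm9 and aligned with Biopython 1.88. The fits were tested on simulated data, and 49 alternatives were tried, besides the scaling for overlapping exons and the lists without PBX2 and RXRB, which were chosen after seeing the data. Within mESCs, libraries with the same passage number deviated together from their group means (correlations 0.477, 0.478 and 0.555 over 14436 genes), so that the numbers pair the samples. In hESCs the correlations were 0.148, 0.038 and -0.051, which does not show whether the numbers pair the samples. The study modelled its transfected and untransfected samples as paired.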

Additional observations from a re-analysis of the deposited data

How the results depend on the processing

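Depth limits the hESC values, where 3 fragments are 0.0137 cpm, and the mESC genes near 1 cpm. The species call of the 8 tested HOX genes, higher in mESCs, held under each alternative that tested them, including DESeq2, upper quartile scaling, gene length as an offset and a limma fit with the libraries of a passage as a block, and 7 were tested with transfected libraries alone or without mESC replicate 3, and 6 with untransfected libraries alone. The 8 genes passed the filter through their mESC libraries alone and so had to differ, so this agreement is a description and no support. With no filter 26 were called, more genes being tested. With the passage as a replicate block in mESCs, 3316 genes were called for transfection in place of 158, and still none of the 10 HOX genes. The title number as a replicate block left 8 species calls, the block in the interaction 0, and in the reporter fit it gave 10 sequences lower in mESCs in place of 9. Scaling to the median random sequence gave 13, with 2375 of all 13469 sequences lower and 616 higher in place of 1866 and 1090. Leaving out a replicate gave 6 to 9 lower sequences, and 0 to 1 higher. That 1, the sequence at the mouse PRAC1 partner region, appeared without mESC replicate 1. The share of Hoxc12 and Hoxc13 was 59.7% by cpm in place of RPKM. Uncalled log2 changes on transfection in mESCs turned sign when a replicate was left out, over ranges of -0.19 to 0.016 for Hoxc13 and -0.58 to 0.029 for Hoxc4 (above 0 without untransfected replicate 1), -0.020 to 0.39 for Hoxc12 (below 0 without transfected replicate 1), -0.37 to 0.25 for Hoxc10 (below 0 without transfected replicate 1 or untransfected replicate 3, and -0.0024 with the block) and -0.040 to 0.48 for Hoxd8 (below 0 without transfected replicate 3). The cause was not tested. Of the other single-gene and single-sequence values, 278 kept their direction and side of the threshold and 13 lost their call.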
